A study of Mus musculus with 8 samples.

Results

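Potassium channel genes were taken here as all protein-coding genes of the mouse assembly GRCm38.p6 (coordinates those of mm10) whose symbol begins with Kcn, which gave 94 of 21631 genes on chromosomes 1 to 19 and X. By symbol they comprised 15 inward rectifiers, 14 two-pore channels, 12 calcium- and sodium-activated channel genes, 12 genes of Kv2 and its silent subunits, 12 of Kv4 and its partners, 11 of Kv1 and its beta subunits, 8 of the EAG and ERG group, 5 of Kv7, 4 of Kv3 and Kcnrg. The measurement was H3K27ac, the acetylation of lysine 27 of histone H3, mapped by chromatin immunoprecipitation and sequencing with the antibody ab4729 in primary neuronal cultures of C57/BL6 mice. There were 4 groups of 2 libraries: MGE cultures with KCl, MGE cultures without stimulation, CTX cultures with KCl and CTX cultures without stimulation. MGE is a common name for the medial ganglionic eminence and CTX for cortex. All 4 groups shared a silencing step in the labels' protocols: on day 6 of culture they were put overnight in the sodium channel blocker tetrodotoxin (1 µM) and the NMDA receptor blocker D-AP5 (100 µM). The KCl groups were then depolarised on day 7 with 55 mM KCl for 2 h, and the unstimulated groups were not. The labels do not fully agree on the tissue: CTX titles give embryonic day 14 but every source entry gives embryonic day 16, and MGE libraries too carry cortical neurons as their cell type. What was separate between the replicates of a group, called biological ones, is not said, so p-values measure the spread between libraries only, which may be technical.

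Potassium channels let potassium cross the cell membrane, and so set the resting potential, the width of the action potential and the rate at which a neuron can fire. Voltage-gated channels of the Kv1, Kv2, Kv3, Kv4 and Kv7 families open on depolarisation, inward rectifiers and two-pore channels carry the resting current, and calcium- and sodium-activated channels open after firing. In the forebrain, Kv3 channels are known for the short spikes of fast-firing interneurons, and Kv7 channels for the M-current, which restrains repeated firing. H3K27ac marks active promoters and enhancers, so it says where regulatory DNA of these genes was acetylated and not how much channel was made.

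Each gene was given a window of its span and 20 kb to each side. Its level is the number of bases of that window inside a library's peaks, divided by the megabases covered by all peaks of that library (bp per Mb called). Peaks numbered 36033 to 66823 a library, over 21.1 to 44.7 Mb, and the 2 longest were the CTX replicates numbered 2, with 44.7 Mb in KCl and 42.9 Mb in unstimulated cultures. Read depth is unknown, and a stretch outside all peaks may still be acetylated below the caller's threshold. Markers went with the culture names: summed over 16 MGE and GABAergic markers, coverage was 2464 to 2744 bp per Mb called in MGE and 1443 to 1625 in CTX libraries, and over 12 cortical glutamatergic markers 65.4 to 241 in MGE and 443 to 833 in CTX libraries. Nkx2-1 was at 0 in CTX libraries, Lhx8 at 0 in both cultures, and Slc17a6, Neurod1, Neurod6 and Emx1 at 0 in MGE libraries. Summed coverage of 8 oligodendrocyte lineage markers was 241 to 343 in MGE and 584 to 749 in CTX libraries (5 of 7 tested lower in MGE and 1 higher, with Cspg4 at 0 in MGE). Over 8 progenitor markers it was 229 to 474 in MGE and 557 to 708 in CTX libraries (4 of 8 lower), and over 8 microglia markers 199 to 363 in MGE and 130 to 200 in CTX libraries (1 of 4 tested higher, with Cx3cr1 at 0 in both cultures). Beside these marker counts, 12.9% of all genes tested were lower and 10.8% higher in MGE. By treatment, microglia sums were 250 and 199 with KCl and 363 and 294 without in MGE cultures. In CTX cultures they were 137 and 130 with KCl and 200 and 180 without. Over 8 endothelial and mural markers coverage was 158 to 207 with KCl and 220 to 317 without (1 of 4 tested lower). Astrocyte sums ran the other way, at 289 and 496 with KCl and 232 and 234 without in MGE cultures. In CTX cultures these were 649 and 709 with KCl and 563 and 643 without (1 of 8 higher). Of 19 activity-regulated genes such as Fos, Bdnf and Nr4a2, 13 rose with KCl over both cultures and none fell. Of all genes tested 3.31% rose and 1.51% fell. Within single cultures 2 of the 19 rose in CTX, beside 0.135% of all genes, and 6 in MGE, beside 1.79%.

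The RefSeq promoter table for GRCm38.p6 listed 94 starts for 69 of the 94 genes, each with 250 bases before and 50 after the start. A start is given as called in a library where a peak covers any of these bases, whether or not it reaches the start itself. The 6 shown belong to 4 genes described below and let CpG-rich and CpG-poor starts be compared, printed 5′ to 3′ on the strand of the gene with CpG dinucleotides in capitals. Kcnc2, a Kv3 gene, has an upstream start on the plus strand (chr10:112269767-112270066, 3 CpG) that was called in all 8 libraries. Its downstream start (chr10:112271023-112271322, 6 CpG) was called in all 4 MGE libraries and in none of the 4 CTX libraries. The internal start of Kcnab1 (chr3:65108764-65109063, plus strand, 3 CpG) was called in 4 MGE and 3 CTX libraries. Kcnq5 has a start on the minus strand with 20 CpG (chr1:21961893-21962192) that was called in all 8 libraries, and a CpG-poor one with 3 (chr1:21962601-21962900) that was called in 1, a CTX library. In MGE unstimulated replicate 2 the peaks ended just before the downstream Kcnc2 start and just before the CpG-rich Kcnq5 start. Kcnh7 (chr2:63184238-63184537, minus strand, 21 CpG) was called in all 8.
Kcnc2 upstream start: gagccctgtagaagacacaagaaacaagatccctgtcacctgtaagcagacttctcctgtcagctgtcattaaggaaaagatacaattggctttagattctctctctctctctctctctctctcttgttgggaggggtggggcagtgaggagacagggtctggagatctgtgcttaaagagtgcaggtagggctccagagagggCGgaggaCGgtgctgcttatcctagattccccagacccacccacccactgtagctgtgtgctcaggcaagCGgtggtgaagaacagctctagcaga
Kcnc2 downstream start: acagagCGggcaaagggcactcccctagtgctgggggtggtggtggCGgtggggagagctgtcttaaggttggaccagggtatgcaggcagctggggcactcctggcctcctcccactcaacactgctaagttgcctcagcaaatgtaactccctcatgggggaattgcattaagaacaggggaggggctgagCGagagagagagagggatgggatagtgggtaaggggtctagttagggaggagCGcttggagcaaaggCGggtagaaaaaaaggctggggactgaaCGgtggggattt
Kcnab1 internal start: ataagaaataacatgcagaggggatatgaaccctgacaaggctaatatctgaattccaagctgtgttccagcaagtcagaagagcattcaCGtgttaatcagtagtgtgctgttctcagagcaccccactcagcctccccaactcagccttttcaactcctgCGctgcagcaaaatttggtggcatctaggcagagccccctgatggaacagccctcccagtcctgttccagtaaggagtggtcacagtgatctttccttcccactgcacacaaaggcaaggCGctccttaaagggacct
Kcnq5 CpG-rich start: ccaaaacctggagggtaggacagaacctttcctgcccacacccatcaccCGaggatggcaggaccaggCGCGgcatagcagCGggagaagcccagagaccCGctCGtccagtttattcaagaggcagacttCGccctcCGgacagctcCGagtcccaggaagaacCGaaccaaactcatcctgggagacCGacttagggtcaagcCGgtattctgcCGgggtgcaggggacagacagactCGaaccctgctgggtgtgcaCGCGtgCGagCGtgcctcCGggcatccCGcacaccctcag
Kcnq5 CpG-poor start: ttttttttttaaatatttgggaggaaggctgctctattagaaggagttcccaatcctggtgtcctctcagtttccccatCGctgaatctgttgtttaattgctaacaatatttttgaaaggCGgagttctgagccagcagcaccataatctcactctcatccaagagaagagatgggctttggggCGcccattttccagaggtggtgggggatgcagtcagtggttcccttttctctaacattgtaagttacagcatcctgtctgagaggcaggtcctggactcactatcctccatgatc
Kcnh7 start: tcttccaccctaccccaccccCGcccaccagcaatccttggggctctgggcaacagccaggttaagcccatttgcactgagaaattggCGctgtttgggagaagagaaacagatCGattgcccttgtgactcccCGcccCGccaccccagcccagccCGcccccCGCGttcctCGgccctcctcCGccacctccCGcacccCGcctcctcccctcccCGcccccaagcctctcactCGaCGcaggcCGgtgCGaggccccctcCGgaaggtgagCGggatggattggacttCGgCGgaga

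Coverage was unevenly spread over the potassium channel genes. Of the 94, 65 (69.1%) had called bases in all 8 libraries, against 60.8% of all protein-coding genes, and Kcnj5, Kcnj8, Kcnk16 and Kcnk18 were at 0 in all 8. Windows of the 94 had a median length of 72.7 kb, against 57.3 kb over all genes, and a longer window has more room for called bases. A mean of at least 10 bp per Mb called was reached by 81 genes, which were tested. The 13 others were Kcne1, Kcne1l, Kcng1, Kcnj1, Kcnj13, Kcnj5, Kcnj8, Kcnk15, Kcnk16, Kcnk18, Kcnk5, Kcnmb1 and Kcns1. Kcnmb1 (9.96), Kcnj1 (7.54) and Kcnj13 (7.15) lay just under that limit and Kcnj12 (11.8), Kcne4 (12.4) and Kcna10 (12.4) just above it. Windows of Kcnip1 and Kcnmb1, Kcnj1 and Kcnj5, Kcnj10 and Kcnj9, and Kcnj16 and Kcnj2 overlap, so these pairs share bases.

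The 10 highest means over the 8 libraries belonged to Kcnd3, Kcnh7, Kcnma1, Kcnn3, Kcnab1, Kcnip1, Kcnd2, Kcnk4, Kcnk10 and Kcnq5. Kcnd3, a Kv4 gene of the fast inactivating A-type current, led with 450 bp per Mb called. It had 494 and 458 with KCl and 501 and 460.2 without in MGE cultures, and 417 and 399 with KCl and 434 and 435 without in CTX cultures. All 4 MGE libraries lay above all 4 CTX libraries, by a small margin. Levels per kb of window followed another order. Each window holds 20 kb to each side of the gene, so flanks weigh more on this scale in short genes than in long ones. Kcnk4, which encodes the mechanosensitive two-pore channel TRAAK, stood first with 4.21 bp per Mb called per kb, then Kcnab3 with 2.59, Kcna3 with 2.34, Kcna2 with 2.12, Kcns2 with 1.99 and Kcna1 with 1.84. Of the windows of Kcnk4 and Kcnab3, 32.3% and 37.5% lie outside the spans of other genes, so most of both windows lies in neighbouring genes; for Kcna3, Kcna2, Kcns2 and Kcna1 nearly the whole window lies outside them. The long genes were sparse on this scale, among them Kcnh7 with 0.661, Kcnma1 with 0.449, Kcnq5 with 0.325 and Kcnip4, a Kv4 partner, with 0.076. The median over the 81 tested potassium channel genes was 0.643 per kb, against 0.826 over all 15537 genes tested. The part of window length in this was not tested.

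**Figure D1:**
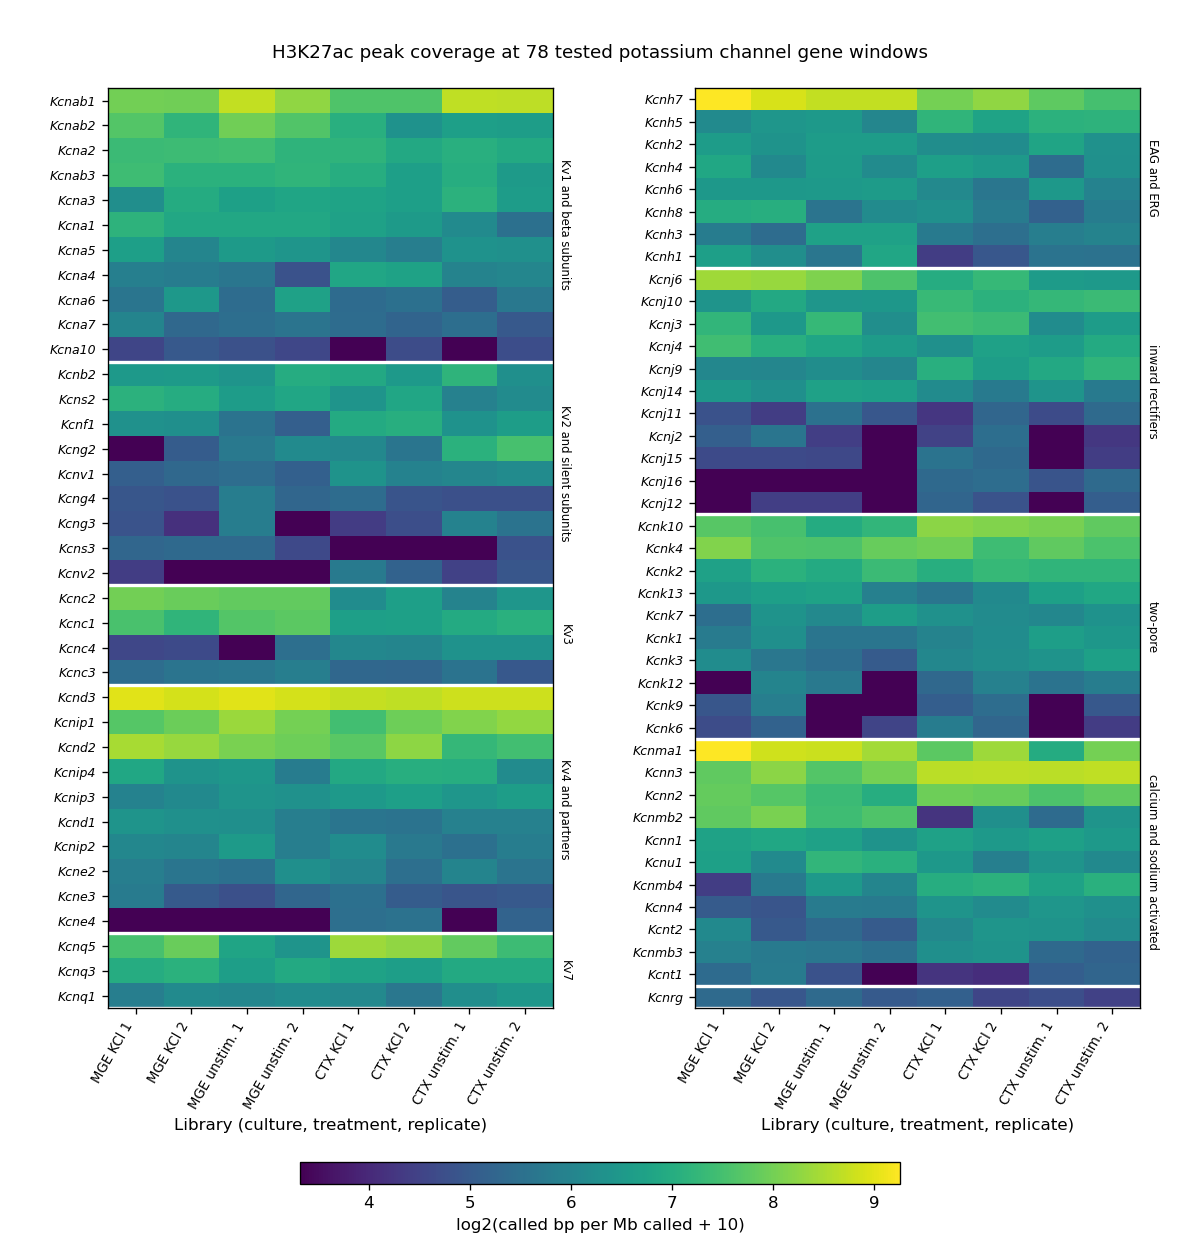
Coverage of 78 of the 81 tested potassium channel gene windows (one line per gene, grouped by family) in the 8 libraries (columns, MGE left of CTX and KCl left of unstimulated), on a colour scale of log2(called bp per Mb called + 10). Kcnd3 is bright in every column, Kcnc2, Kcnmb2 and Kcnj6 are brighter in the 4 MGE columns, and Kcnj16 is at 0 in those 4 columns.

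Summed over all 94 windows, coverage was similar between treatments and a little higher in MGE cultures. It was 8443 ± 431 bp per Mb called with KCl and 7890 ± 498 without in MGE cultures, and 7496 ± 0.861 with KCl and 7376 ± 190 without in CTX cultures (SD, n = 2 each). The ratio of KCl to unstimulated was 1.07 in MGE and 1.02 in CTX cultures, beside 1.02 and 1.04 for the windows of all protein-coding genes. The ratio of MGE to CTX was 1.10, beside 1.03 for all genes. By family, the Kv3 genes had 462 ± 36.5 in MGE and 271 ± 21.9 in CTX libraries, and the EAG and ERG group 1010 ± 121 in MGE and 676 ± 38.6 in CTX libraries (SD, n = 4 each). Single genes weighed heavily in these sums: Kcnc2 had means of 227 in MGE and 71.0 in CTX libraries, and Kcnh7 469 and 232. Kcnc4 and Kcnh5 of the same families were lower in MGE. The sum of the two-pore genes was lower in MGE, with 784 ± 92.7 in MGE and 974 ± 19.9 in CTX libraries. The inward rectifiers had 847 ± 65.2 with KCl and 663 ± 167 without in MGE cultures, and 771 ± 12.5 with KCl and 578 ± 81.1 without in CTX cultures (SD, n = 2 each), and none of the 11 tested members passed the KCl test given further on.

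Between cultures, 31 of the 81 tested genes differed: 13 were higher in MGE and 18 lower (limma with Benjamini-Hochberg adjustment over 15537 genes, adjusted p under 0.05). Among all genes tested 23.7% differed, with 10.8% higher and 12.9% lower. In 11 genes all 4 MGE libraries lay above all 4 CTX libraries and in 14 below, beside 10.6% and 10.2% of all genes. The genes higher in MGE cultures included 2 of the 4 Kv3 genes, 3 of the 8 EAG and ERG genes, and the BK channel gene Kcnma1 with its subunit gene Kcnmb2. Those lower in MGE cultures included 4 of the 10 tested genes of Kv2 and its silent subunits, 3 of the 11 tested inward rectifiers and the Kv7 gene Kcnq5. The median log2 difference over all genes was 0.12, and over the tested potassium channel genes 0.11, so single differences are to be read against that offset. In these bulk cultures fewer cells of a type and less acetylation per cell cannot be told apart, and the marker sums above differed between the same libraries. Their part in the results was not tested.

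Kcnc2, one of the Kv3 genes that let interneurons fire fast (chr10, 112269898 to 112466304), had the smallest p of the potassium channel genes. It had 245 and 228 bp per Mb called with KCl and 219 and 218 without in MGE cultures, and 63.8 and 91.6 with KCl and 52.5 and 76.1 without in CTX cultures. Every MGE library lay above every CTX library, and KCl and unstimulated libraries of MGE were close together. The log2 difference was 1.57 (SE 0.17, adjusted p = 1.95e-05, limma). Its Kv3 relative Kcnc1 had 178 and 137 with KCl and 192 and 206 without in MGE cultures, and 92.4 and 93.8 with KCl and 114 and 127 without in CTX cultures, again without overlap between cultures (log2 difference 0.68, adjusted p = 0.00528, limma). With bases inside other genes' spans left out, Kcnc1 no longer passed (adjusted p = 0.147, limma, with a range of 1.83e-05 to 0.571 over the alternatives tried), and 2 peaks of its window lie in the neighbouring gene Sergef. Kcnc4, the third Kv3 gene past the test, was lower in MGE, at 14.1 and 15.2 with KCl and 0 and 35.2 without in MGE cultures, and 56.8 and 54.5 with KCl and 71.5 and 71.4 without in CTX cultures.

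In the EAG and ERG group, Kcnh7, an ERG channel gene (chr2, 62693410 to 63184287), had 597 and 462 bp per Mb called with KCl and 409 and 408 without in MGE cultures, and 250 and 296 with KCl and 210.5 and 173 without in CTX cultures. The cultures did not overlap, and the log2 difference was 0.99 (SE 0.14, adjusted p = 0.000139, limma). Kcnh1, which encodes the EAG channel itself, was higher by 1.23 on the log2 scale and Kcnh8, an ELK channel gene, by 0.69, while Kcnh5, the other EAG gene, was lower (-0.76). The difference of Kcnh8 turned to -1.05 with peaks of −log10 q of at least 5 alone, and it passed in 5 of 21 alternatives.

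The BK channel, opened by voltage and calcium together, was represented by its pore gene Kcnma1 and by beta subunit genes that moved in opposite directions. Kcnma1 (chr14, 23292288 to 24005110) had 598 and 440.2 bp per Mb called with KCl and 428 and 337 without in MGE cultures, and 206 and 326 with KCl and 116 and 249.5 without in CTX cultures. Kcnmb2, whose product makes BK currents inactivate (chr3, 31901861 to 32200180), had 213 and 257 with KCl and 159.5 and 186 without in MGE cultures, and 8.65 and 67.1 with KCl and 32 and 73.8 without in CTX cultures. For both genes the lowest MGE library stood above the highest CTX library, with log2 differences of 1.03 (adjusted p = 0.00252) and 2.15 (adjusted p = 0.000349, limma). Kcnmb4, the beta subunit gene typical of brain, had 11.2 and 43.4 with KCl and 82.2 and 55.4 without in MGE cultures, and 119 and 129.6 with KCl and 96.9 and 125 without in CTX cultures, so all 4 MGE libraries were lower (log2 difference -1.31, adjusted p = 0.00181, limma). Of the small-conductance calcium-activated channels, which shape the afterhyperpolarisation, Kcnn3 was lower in MGE: it had 212 and 286 with KCl and 193 and 249.8 without in MGE cultures, and 391 and 395 with KCl and 387 and 400.4 without in CTX cultures (log2 difference -0.73, adjusted p = 0.00177, limma). The 4 CTX libraries of Kcnn3 lay close together, and all 4 MGE libraries lay below them. Kcnn2 of the same family did not pass (-0.33, adjusted p = 0.141, limma), Kcnn4, the intermediate-conductance channel, was lower (-0.96), and of the sodium-activated channels Kcnt2 was lower (-0.89) and Kcnt1 did not pass (0.16).

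Among inward rectifiers, Kcnj6, a G-protein-gated channel gene (chr16, 94744980 to 94997696), had 332 and 312 bp per Mb called with KCl and 267 and 183 without in MGE cultures, and 117 and 148 with KCl and 85.1 and 82.2 without in CTX cultures. No CTX library reached the lowest MGE library, and the log2 difference was 1.26 (SE 0.16, adjusted p = 6.76e-05, limma). Kcnj3, which encodes a partner of the Kcnj6 channel, did not differ past the threshold (-0.09, adjusted p = 0.81, limma), and Kcnj9, of the same group, was lower (-0.85, adjusted p = 0.00349). The call on Kcnj9 was lost without bases inside other genes' spans (adjusted p = 0.297, limma, range 0.000937 to 0.967 over the alternatives), and its window overlaps that of Kcnj10. Kcnj10 encodes the main potassium channel of astrocytes and Kcnj16 its partner. Kcnj10 had 73.3 and 109 with KCl and 76.7 and 78.4 without in MGE cultures, and 149 and 130 with KCl and 145 and 155 without in CTX cultures (log2 difference -0.73, adjusted p = 0.00635, limma). Kcnj16 was listed at 0 in all 4 MGE libraries, against 30.7 and 33.4 with KCl and 19.1 and 31.3 without in CTX cultures (adjusted p = 0.000531, limma). Summed over 8 astrocyte markers, coverage was 232 to 496 bp per Mb called in MGE and 563 to 709 in CTX libraries. Of the 8, 4 were lower in MGE, beside 12.9% of all genes tested, and Aqp4 was at 0 there. The part of astrocytes in the values of Kcnj10 and Kcnj16 was not tested.

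**Figure D2:**
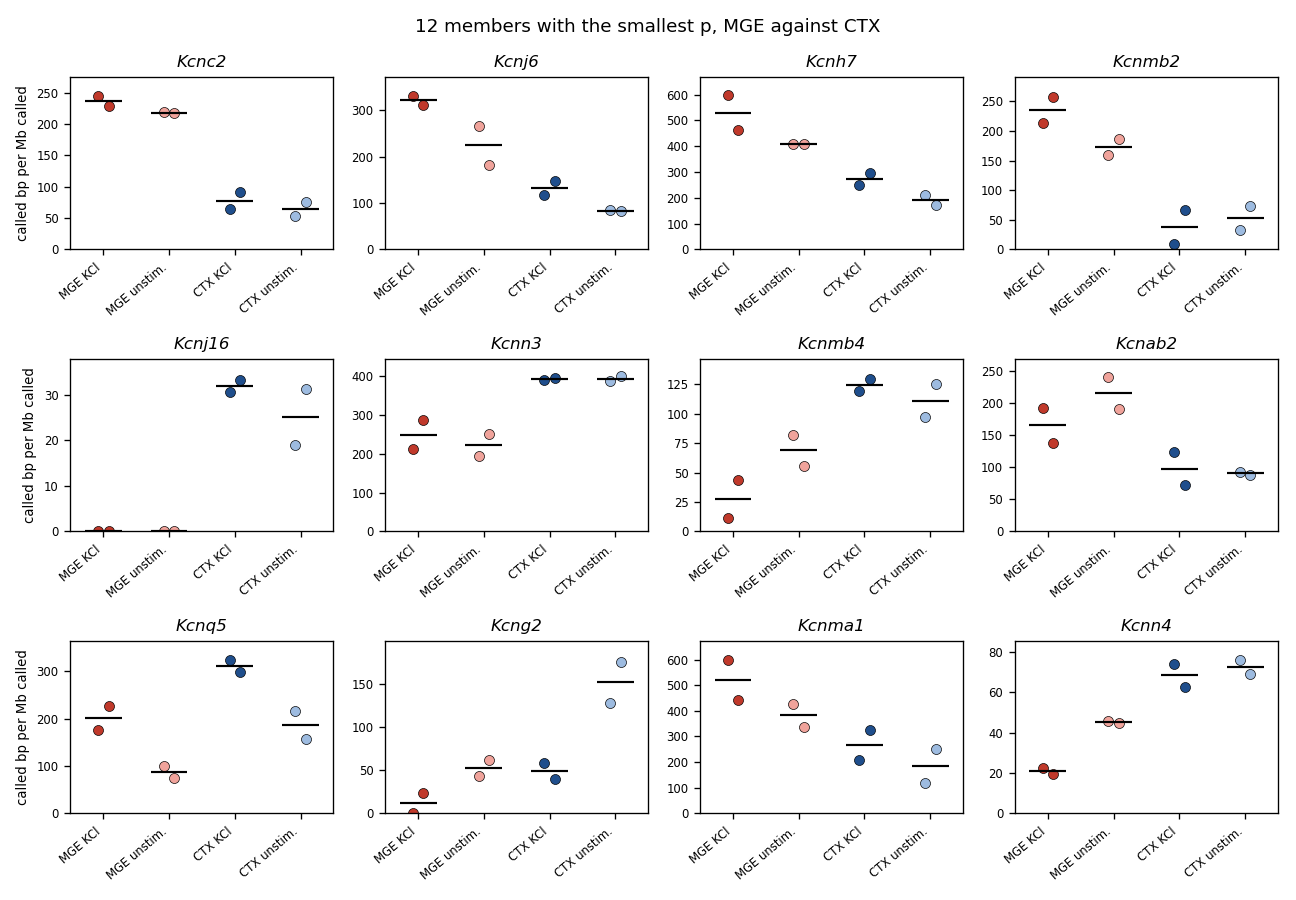
Called bp per Mb called (linear axis from 0) of the 12 potassium channel genes with the smallest p between cultures; points are the 2 libraries of a group, bars their mean, with MGE groups left of CTX groups. For Kcnc2, Kcnj6, Kcnh7, Kcnmb2, Kcnab2 and Kcnma1 all MGE points lie above all CTX points, for Kcnj16, Kcnn3, Kcnmb4 and Kcnn4 all lie below, and for Kcnq5 and Kcng2 the cultures overlap.

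In the Kv1 family, whose channels sit on axons, Kcna1 was higher in MGE, with 132 and 107 bp per Mb called with KCl and 107 and 107 without in MGE cultures, and 94.6 and 83.2 with KCl and 61.2 and 35.3 without in CTX cultures. Kcna1 did not pass with gene spans alone, with flanks of 50 kb or with each list cut to the called bases of the shortest. Its log2 difference lay between 0.013 and 2.07 over the alternatives. Kcnab2, a cytoplasmic beta subunit gene of these channels, was higher too (0.94, adjusted p = 0.00216, limma), and for both genes the cultures did not overlap. Kcna4, the inactivating Kv1 channel, was lower in MGE (-0.86, adjusted p = 0.0104, limma), and Kcna2 did not pass (0.32, adjusted p = 0.168). Kcnd2, which carries A-type current in dendrites, was higher in MGE (0.52, adjusted p = 0.0199, limma), while Kcnd3 (0.18), Kcnip1 (0.04) and Kcnip4 (-0.42), the last 2 encoding calcium-binding Kv4 partners, did not pass. The libraries of Kcnd2 overlapped between cultures. It did not pass with flanks of 50 kb or with medians set equal (adjusted p = 0.0736, limma). With peaks of −log10 q of at least 5 alone its difference was -0.022. Kcne4, a single-pass accessory subunit gene, was listed at 0 in all MGE libraries and at 35.1 and 37.1 with KCl and 0 and 26.9 without in CTX cultures.

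Of the silent subunits of Kv2, which form no channel alone, Kcns3 (1.45) and Kcns2 (0.56) were higher in MGE, and Kcng2 (-1.52), Kcnf1 (-0.92), Kcnv1 (-0.88) and Kcnv2 (-1.49) lower. The difference of Kcnf1 turned to 0.10 with gene spans alone and to 0.23 with 50 kb flanks. Kcns3 was at 0 in 3 of 4 CTX libraries, so the size of its difference depends on the pseudocount. CTX unstimulated replicate 2 had 18.1 bp per Mb called, above the 14.7 of MGE unstimulated replicate 2, so the cultures overlapped for Kcns3. The libraries of Kcns2 overlapped between cultures, and it did not pass with medians set equal (adjusted p = 0.0692, limma). In the Kv7 family, Kcnq5 was lower in MGE (-0.82, adjusted p = 0.0023, limma), and Kcnq3 (0.11, adjusted p = 0.653) did not pass. Among two-pore channels Kcnk10 (-0.68), a mechanosensitive channel gene, and Kcnk3 (-0.74), an acid-sensitive one, were lower, and Kcnk2 (-0.15) and Kcnk9 (-0.36) did not pass.

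The split of these 31 calls depended on the scaling. The counts that follow are of potassium channel genes only, without the share over all genes. Without division by the megabases called, 16 passed, 0 higher and 16 lower in MGE. With each list cut to the called bases of the shortest, 22 passed, 13 higher and 9 lower, of which 17 were among the 31. With medians set equal, 29 passed, 11 higher and 18 lower, of which 28 were among the 31. Without both CTX libraries of replicate 2, the longest lists, 7 passed and all were higher in MGE: Kcna10, Kcnc2, Kcnh7, Kcnj6, Kcnma1, Kcnmb2 and Kcns3, of which all but Kcna10 were among the 31.

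With KCl, averaged over both cultures, 8 of 81 tested genes changed, 5 higher and 3 lower (limma, adjusted p under 0.05). Of all genes tested 4.83% changed, 3.31% higher and 1.51% lower. Genes that rose were the Kv7 gene Kcnq5, the two-pore genes Kcnk9 and Kcnk6, the silent subunit gene Kcnf1 and the ELK gene Kcnh8, and genes that fell included the beta subunit gene Kcnab1 and the silent subunit gene Kcng2. The median log2 difference was 0.03 over the potassium channel genes and 0.05 over all genes tested. In 14 genes the KCl libraries lay above the unstimulated libraries within both cultures and in 7 below, beside 9.83% and 4.89% of all genes. Some of the marker sums given above also differed between treatments, and their part in the KCl results was not tested.

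Kcnab1, the beta subunit that gives Kv1 channels fast inactivation (chr3, 64949212 to 65378225), fell. It had 244 and 240.2 bp per Mb called with KCl and 406 and 299.9 without in MGE cultures, and 187 and 187 with KCl and 399 and 394 without in CTX cultures. All 4 KCl libraries lay below all 4 unstimulated libraries. The log2 difference was -0.78 over both cultures (SE 0.14, adjusted p = 0.00765, limma), and in CTX alone -1.04 (adjusted p = 0.0427).

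Kcnq5, a gene of the M-current, rose. Kcnq5 (chr1, 21398399 to 21962650) had 175 and 227 bp per Mb called with KCl and 99.9 and 73.9 without in MGE cultures, and 324 and 299 with KCl and 216 and 158 without in CTX cultures. Within each culture the KCl libraries were higher, with a log2 difference of 0.92 over both cultures (SE 0.17, adjusted p = 0.00797, limma) and 1.13 in MGE alone (adjusted p = 0.0217). It held 7 and 15 peaks with KCl and 4 and 4 without in MGE cultures, and 16 and 20 with KCl and 7 and 11 without in CTX cultures. Kcnq3, another M-current gene, was 0.02 on the log2 scale and did not pass (adjusted p = 0.974).

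**Figure D3:**
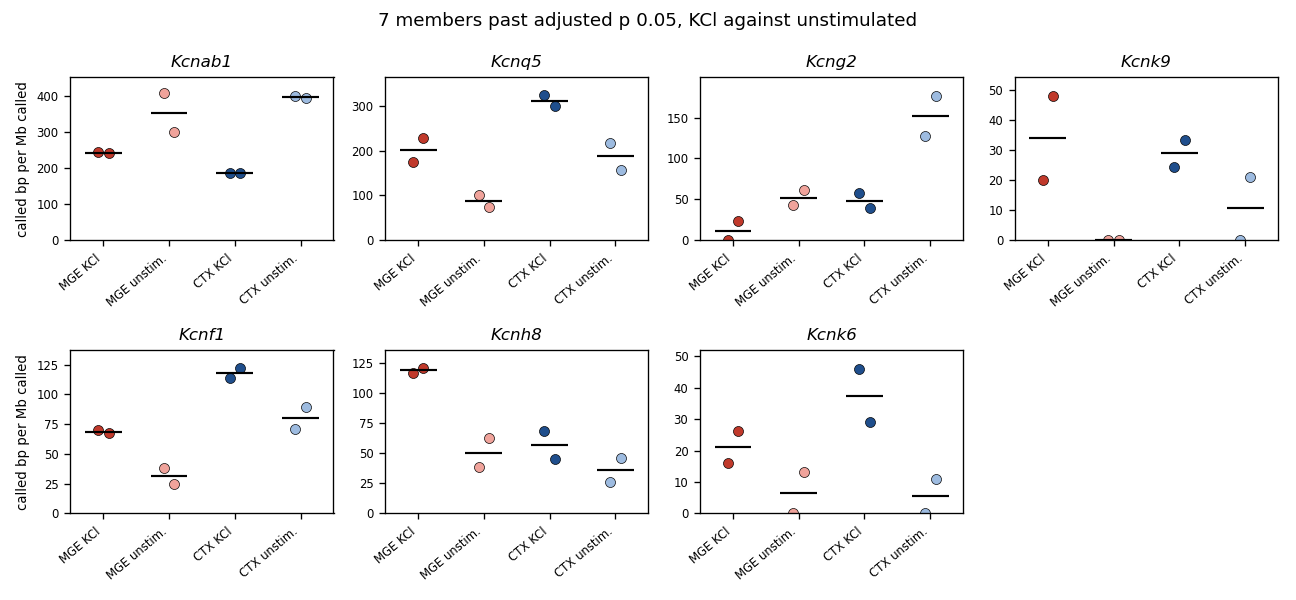
Called bp per Mb called (linear axis from 0) of 7 of the 8 potassium channel genes past adjusted p 0.05 for KCl against unstimulated over both cultures; points are the 2 libraries of a group and bars their mean. Kcnab1 and Kcng2 are lower and Kcnq5, Kcnk9, Kcnf1 and Kcnk6 higher in the KCl libraries of each culture, and for Kcnh8 the CTX groups touch.

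Kcng2 and Kcnf1 encode silent subunits that change Kv2 channels. Kcng2 fell, with 0 and 23.3 bp per Mb called with KCl and 43 and 61.5 without in MGE cultures, and 57.8 and 39.5 with KCl and 128 and 176 without in CTX cultures (log2 difference -1.61, adjusted p = 0.0116, limma). Kcnf1 rose, with 69.7 and 67.6 with KCl and 38.1 and 24.7 without in MGE cultures, and 114 and 122 with KCl and 70.8 and 88.9 without in CTX cultures (log2 difference 0.73, adjusted p = 0.0442, limma). In both genes the treatments did not overlap within a culture. Kcnk9, an acid-sensitive two-pore channel gene, was listed at 0 in 3 of 4 unstimulated libraries: it had 20 and 47.8 with KCl and 0 and 0 without in MGE cultures, and 24.3 and 33.5 with KCl and 0 and 21.2 without in CTX cultures (adjusted p = 0.0308, limma). With peaks of −log10 q of at least 5 alone, Kcnk9 fell under the limit on the mean and was not tested. With medians set equal it did not pass (adjusted p = 0.0943, limma). Kcnk6 (adjusted p = 0.0487) had at most 45.8 bp per Mb called in a library. Its called bases lay in a region that overlaps the neighbouring gene Yif1b, apart from 343 bp in 1 CTX KCl library. Without bases inside other genes' spans Kcnk6 fell under the limit on the mean and was not tested. Kcnh8 had 117 and 121 with KCl and 39 and 62.4 without in MGE cultures, and 68.6 and 45.7 with KCl and 26 and 46 without in CTX cultures, so its treatments were apart in MGE and touched in CTX (log2 difference 0.84, adjusted p = 0.0466, limma).

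Other genes of the main neuronal currents did not pass. Kcnip1 had a log2 difference of -0.44 (adjusted p = 0.13, limma), Kcnd2 0.51 (0.0671), Kcnj6 0.56 (0.0636), Kcnj3 0.54 (0.224), Kcnn2 0.39 (0.162) and Kcnip4 0.42 (0.339). Kcnd3 (-0.05), Kcna2 (0.07) and Kcnk2 (-0.14) did not pass either.

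Within single cultures 1 gene passed in each, and with a replicate block 0 passed in either. In CTX it was Kcnab1, which fell, beside 0.238% of all genes tested in either direction and 0.103% lower. In MGE it was Kcnq5, which rose, beside 2.52% in either direction and 1.79% higher. Among the next by p in CTX, without passing, were the BK beta subunit gene Kcnmb3 (1.05), Kcng2 (-1.47) and Kcnk6 (1.69), and in MGE Kcng2 (-1.75), the ELK gene Kcnh3 (-1.11), Kcnk9 (2.06) and Kcnh8 (1.12). The response itself was not shown to differ between cultures: 0 of 81 genes passed the limma test of MGE minus CTX response (0.0386% of all genes did), and 7 had an unadjusted p under 0.05 (6.6% of all genes did). The smallest p belonged to Kcnt1, the sodium-activated channel gene, with 32 and 45.5 bp per Mb called with KCl and 18.2 and 0 without in MGE cultures, and 8.65 and 7.09 with KCl and 24.4 and 28.2 without in CTX cultures (difference of responses 2.55, adjusted p = 0.3, limma). Without MGE unstimulated replicate 1, 1 gene passed, and it was Kcnt1. Kcnmb4 (-1.37), Kcnk13 (1.14) and Kcnk3 (1.06) were among those that followed, none passing.

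The KCl calls rested on few libraries. The counts below are of potassium channel genes only, without the share over all genes, so whether losses are particular to them was not tested. Without CTX KCl replicate 1, or without CTX KCl replicate 2, 0 of the 8 passed, and without both CTX libraries of replicate 2 also 0. Over all alternatives tried, the log2 difference of Kcnab1 stayed between -1.59 and -0.58 (limma adjusted p 0.00082 to 0.391) and that of Kcnq5 between 0.55 and 2.19 (0.000726 to 0.232). Without CTX unstimulated replicate 1, 2 passed, Kcnab1 and Kcnq5. Without MGE KCl replicate 1 there were 5, all among the 8, and without MGE KCl replicate 2 there were 4, of which 3 were. With the medians set equal, 5 passed, 1 higher and 4 lower, of which 4 were among the 8 and the fifth was Kcnh3. With equal called bases 7 passed, 3 higher and 4 lower, but only 3 of these were among the 8 (Kcnab1, Kcng2 and Kcnh8). Kcnq5 was not among them, and Kcna5, Kcnip1, Kcnk10 and Kcnn2 passed in that setting.

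Single peaks showed where the windows differed. Peaks of the 8 lists were merged where they touched, a pattern chosen after values were seen, and a merged region was followed where all 4 libraries of one side and none of the other had called bases in it. Windows of 14 of the 94 genes (14.9%, against 6.58% of all genes) held such a region for MGE, and 21 (22.3%, against 12.5%) for CTX. The windows had a median length of 72.7 kb, against 57.3 kb over all genes, and a longer window has more room for a region. Regions of both kinds stood in 7 windows (7.45%, against 2.02% of all genes), those of Kcna1, Kcna3, Kcnab1, Kcnc2, Kcnip1, Kcnj4 and Kcnj6. With each list cut to equal called bases, 13 genes held an MGE region (13.8%, against 7.04% of all genes), 8 a CTX region (8.51%, against 4.42%) and 2 both (2.13%, against 0.874%), Kcna3 and Kcnab1.

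Kcnma1 had 6 MGE regions, all within the gene. The region at chr14:23564081-23566015 covered 1228 and 1611 bp with KCl and 1287 and 1534 bp without in MGE cultures, and 0 in CTX libraries. Kcnh7 had 5, of which the region at chr2:63004215-63005770 covered 1556 and 1331 bp with KCl and 549 and 953 bp without in MGE cultures. Kcnq5 had 4 CTX regions along its span, among them chr1:21411556-21412741, with 927 and 1099 bp with KCl and 934 and 945 bp without in CTX cultures, and 0 in MGE libraries. Kcnj4, a strong inward rectifier gene, was occupied at neighbouring places: chr15:79500459-79501359 had 901, 862, 873 and 757 bp in the 4 MGE libraries, and chr15:79502403-79504038 had 573, 1388, 1089 and 1361 bp in the 4 CTX libraries. Its summed level did not differ past the threshold between cultures (log2 difference 0.33, adjusted p = 0.22, limma), but it passed as higher in MGE with equal called bases (2.14, adjusted p = 0.0113, limma) and with 50 kb flanks (0.40, adjusted p = 0.045), with a range of 0.0113 to 0.827 over the alternatives. Kcnc2, higher in MGE as a whole, also held 2 CTX regions, of which chr10:112417526-112418220 covered 418 and 680 bp with KCl and 412 and 598 bp without in CTX cultures. Of 64 distinct regions of any kind, 54 lay in a potassium channel gene and 10 outside, and 2 of the 57 at genes with a listed start lay within 2 kb of it. The gene table used here gives spans, so exons and introns are not told apart.

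**Figure D4:**
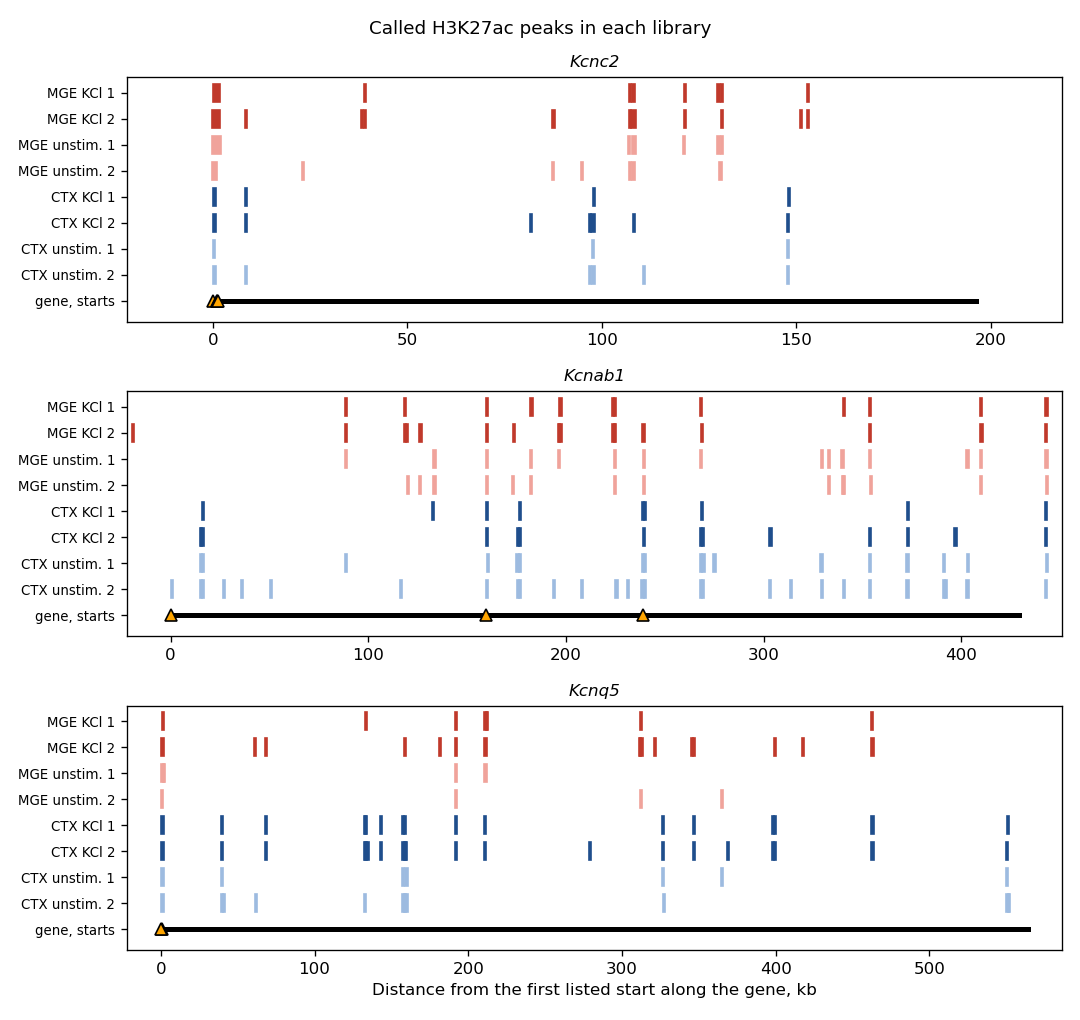
Peaks called in each of the 8 libraries along Kcnc2, Kcnab1 and Kcnq5, plotted by distance in kb from the first listed start along the gene, with the gene span as a black bar and listed starts as triangles; narrow peaks are drawn wider than scale so that they can be seen. Kcnc2 has peaks in the 4 MGE libraries beyond 100 kb that CTX libraries lack, and Kcnq5 has more peaks in KCl than in unstimulated libraries of the same culture.

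For treatment, 4 genes held a region in all 4 KCl and no unstimulated library (4.26%, against 2.89% of all genes): Kcnh1, Kcnk9, Kcnma1 and Kcnq5. The Kcnk9 region at chr15:72546698-72548227 covered 430 and 1530 bp in MGE KCl libraries and 692 and 969 bp in CTX KCl libraries. The Kcnq5 region at chr1:21499890-21500499, 461 kb from the nearest listed start, covered 240 and 522 bp in MGE KCl and 469 and 503 bp in CTX KCl libraries. With equal called bases none of the 94 genes held such a region (1.62% of all genes did). The reverse pattern occurred at Kcnc1 alone of the 94 (1.06%, against 0.619% of all genes).

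A stricter count of 500 bp bins, called where at least 50% lay in peaks and joined where 2 or more were adjacent, gave few regions. In CTX cultures, windows of Kcna4 and Kcnh7 gained a region with KCl (2 genes, 2.13%, against 2.06% of all genes) and that of Kcng3 lost one (1.06%, against 0.809%). In MGE cultures Kcnh8 and Kcnip1 gained one (2 genes, 2.13%, against 2.55%) and none of the 94 lost one (0.601% of all genes did). Between cultures, 5 genes had an MGE region (5.32%, against 0.938%), namely Kcna1, Kcnab1, Kcnc2, Kcnj4 and Kcnma1, and Kcnip1 alone had CTX regions (1.06%, against 1.46%). In 21 genes (22.3%, against 22.2% of all genes) a region was called in all 8 libraries. With 1 library left out a region has fewer libraries to meet, so these counts can only stay or rise. The share over all genes is not given beside them. In CTX cultures 18 windows gained a region without KCl replicate 1 or without unstimulated replicate 2, and 21 lost one without unstimulated replicate 1. In MGE cultures 21 gained one without KCl replicate 1.

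Listed starts were called, by the rule given with the sequences, at some of the genes and not at others. Of the 69 genes with a listed start, 11 (15.9%) had a start called in all 8 libraries, against 24.8% of all genes. In 30 (43.5%) a start was called in none, against 45.4%. By library, 21 and 29 of 69 were called with KCl and 21 and 18 without in MGE cultures, and 27 and 33 with KCl and 19 and 33 without in CTX cultures, the highest counts being those of the longest lists. Start windows called in 7 or 8 libraries (17 of 94) had a median of 21 CpG, those called in 1 to 6 libraries (33) a median of 10, and those called in none (44) a median of 7. The range was wide, 3 to 48 in the first of these classes and 0 to 49 in the last, and the Kcnc2 upstream start printed above, with 3 CpG, belonged to the first. The peak over that start spanned 1918 and 2050 bp with KCl and 2129 and 1353 bp without in MGE cultures, against 816 and 850 bp with KCl and 326 and 946 bp without in CTX cultures, so it was longer in every MGE library.

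Motifs bound by activity-regulated factors were counted in the 94 start windows on both strands. The cyclic AMP response element TGACGTCA occurred in 0 of 94 (2.26% of all listed starts), the shorter TGACG, which lies within it, in 18 (19.1%, against 23.8%), and the AP-1 motif TGANTCA in 4 (4.26%, against 7.04%). A match is a run of letters and not a bound site.

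**Figure D5:**
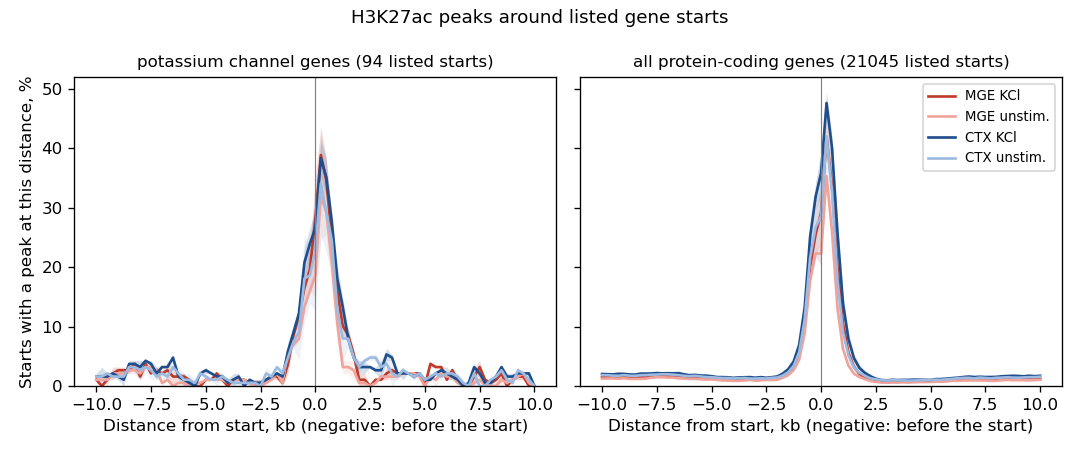
Share of listed starts (in %) with a peak at each distance from the start (kb, negative before the start), for the 94 starts of potassium channel genes and for the 21045 starts of all protein-coding genes; lines are means of the 2 libraries of a group and shading their range. In both sets the share is highest just after the start and low beyond 2.5 kb.

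Genes whose products join or anchor potassium channels were described from a list of 28 outside the symbol rule, of which 26 were tested. With KCl 3 changed, 2 higher and 1 lower, beside 4.83% of all genes tested. Kctd8, which encodes a GABA-B receptor subunit, rose (1.13, adjusted p = 0.0224, limma), and Cntn2, an axonal adhesion gene of Kv1 sites, fell (-1.10, 0.0132). By culture, Kctd8 passed in CTX (1.906, adjusted p = 0.042, limma) and not in MGE (0.345, 0.785). Cntn2 passed in MGE (-1.625, adjusted p = 0.0159, limma) and not in CTX (-0.583, 0.545). The difference of responses passed for neither (adjusted p = 0.455 and 0.697, limma). Between cultures 12 differed, 9 higher and 3 lower in MGE, beside 23.7% of all genes tested (10.8% higher and 12.9% lower). The Kv4 auxiliary genes Dpp10 (0.58) and Dpp6 (0.40) were higher, as were the Kv1-associated Lgi1 (0.98), Adam23 (1.26) and Cntnap2 (0.46), the Kv2-associated Amigo1 (0.46), and Kctd8 and Kctd12. Cntn2 (-0.94), the scaffold gene Dlg1 (-0.63) and Kctd16 (-0.56) were lower.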

How the data were processed

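Peaks of H3K27ac in 8 libraries were deposited as 1 broad-peak list per library. The submitters' processing notes name build mm10 and MACS3 3.0.0a7, Bowtie2 2.3.3, cutadapt 1.18 and deepTools 3.4.3. The sources used here do not say whether an input control was used or how duplicates were handled. Each peak as deposited by the authors carries a score, a fold enrichment (a linear ratio) and −log10 p and −log10 q values, which belong to that peak. Only positions were used, and −log10 q to filter or rank peaks in alternatives. On chromosomes outside 1 to 19 and X, 29 peaks were left out.

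For each of 21631 gene windows (span and 20 kb to each side) the called bases were divided by the library's megabases called. Genes with a mean of at least 10 bp per Mb called were tested on log2(value + 10), so log2 differences of low genes are understated, with limma 3.58.1 in R 4.3.3 (4 group means, moderated variance with trend, Benjamini-Hochberg over all 15537 genes, threshold 0.05), tested on simulated data. One value tested exactly could not go below p = 0.33 with 2 libraries against 2, or 0.029 with 4 against 4. The members, families, partner, marker and activity lists were chosen with earlier results of these data known. Named genes are those past the threshold (up to 12 by p, or the 5 of smallest p), the 10 highest means, a list of 24 main neuronal genes and those with gained, lost or culture regions. Kcnc4, Kcnj9, Kcnh1, Kcnv2, Kcnh5, Kcnv1, Kcns3, Kcne4 and Kcns2 passed beyond that number and were named after their values were seen, as were the genes of merged peak regions. Alternatives varied the pseudocount, filter, flank, window content, peak threshold, scaling, prior and libraries, and added a replicate block. Some genes counted among the tested and called ones are not reported here by name, and the plots leave them out.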

Additional observations from a re-analysis of the deposited data

How the results depend on the processing

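Counts of calls and regions in this section are of potassium channel genes, without the share over all genes in the same setting. For KCl over both cultures, 8 of the tested genes passed as reported. The count was 2 with a pseudocount of 1 and 14 with 50, 4 without the filter on low values, 5 without bases in other genes' spans, 0 with −log10 q of at least 5, 0 without division by megabases called, 5 with medians set equal, 4 without the variance trend, and 0 without both CTX libraries of replicate 2, a setting chosen after seeing the data. For KCl in CTX (1 as reported) it was 0 with a pseudocount of 1 and 2 with 50, 3 with equal called bases, and 0 without the filter, with −log10 q of at least 5, without division, with equal medians and without the trend. For KCl in MGE (1) it was 0 with a pseudocount of 1 and 6 with 50, 4 with gene spans alone, 4 with 50 kb flanks, 3 without other genes' bases, and 0 with −log10 q of at least 5, with equal called bases, without division and without the trend. For MGE against CTX (31) it was 6 with −log10 q of at least 5 (5 higher), 16 without division and 7 without both CTX libraries of replicate 2. Leaving out 1 library gave 0 to 9 for KCl over both cultures, 0 to 1 in CTX, 0 to 2 in MGE, 24 to 32 between cultures and 0 to 1 for the difference of responses, which was 0 in every other setting tried. Whether the replicate numbers pair the libraries is not known. Deviations of same-numbered libraries correlated at 0.03 in MGE and 0.319 in CTX cultures, which does not settle it. Between the KCl groups they correlated at 0.226 and between the unstimulated groups at -0.121. With a replicate block the counts were 7 for KCl over both cultures, 0 in MGE, 0 in CTX, 37 between cultures and 0 for the difference of responses.

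Regions depended on their definition. With single bins, windows with a region numbered 38 gained and 17 lost in MGE, 39 gained and 27 lost in CTX, 11 with MGE only, 16 with CTX only and 50 in all libraries. With any overlap of a bin these were 25, 9, 19, 16, 9, 19 and 52 in the same order. With −log10 q of at least 5, 7 were gained and 1 lost in MGE and 2 were MGE only, and with equal called bases 6 were gained and 6 lost in CTX and 0 were CTX only. Leaving out 1 library, which can only keep or raise these counts, gave 2 to 21 gained and 0 to 6 lost in MGE. In CTX it gave 2 to 18 gained and 1 to 21 lost. Culture regions numbered 5 to 6 for MGE only and 1 to 7 for CTX only, and 21 to 24 stood in all libraries. Merged peak regions with equal called bases, also chosen after seeing the data, stood in 0 windows for KCl, 2 for unstimulated, 8 for CTX and 2 for both cultures' kinds. Summed coverage without division gave ratios of KCl to unstimulated of 1.29 in MGE and 1.11 in CTX and of MGE to CTX of 0.765, and with −log10 q of at least 5 the last was 1.16. Leaving out 1 library moved these ratios to 1.02 to 1.12, 0.998 to 1.04 and 1.07 to 1.13. Of 840 values of 41 gene results under the alternatives, 598 kept direction and call, 238 lost the call and 4 reversed between cultures: Kcnd2 (-0.022) and Kcnh8 (-1.05) with −log10 q of at least 5, and Kcnf1 with gene spans alone (0.10) and with 50 kb flanks (0.23). The cause was not tested. Read depth is unknown, so how far it limits the weak peaks of each list cannot be given.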
